A study of Homo sapiens with 12 samples.

Results

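Transcripts of 38 genes of glucose uptake, glycolysis and pyruvate entry were followed in TPC-1 and LC-2/ad cells after inhibition of the RET receptor tyrosine kinase. The genes were chosen by name, as the glucose and lactate transporters, the glycolytic enzymes, a branch into pentose phosphates, the genes that admit pyruvate to the mitochondrion, and the arrestin genes TXNIP and ARRDC4. The choice was made with earlier results of these data known. Comparisons of the members with all genes are therefore descriptions and no independent test of the pathway. Each of the 38 symbols matched 1 of the 37247 gene identifiers in the tables of both lines. TPC-1 is a human papillary thyroid carcinoma line and LC-2/ad a human lung adenocarcinoma line, and both are known to carry a RET fusion. TPC-1 cells given 100 nM selpercatinib, a RET inhibitor, for 48 h were set against TPC-1 parent cells without treatment, and LC-2/ad cells given the same dose for the same time against LC-2/ad parent cells without treatment. Each of the 4 groups had 3 RNA-seq libraries, 12 in all. Separate cultures are not stated for the 3 libraries of a group, so a p-value measures the spread among libraries alone and that spread may be technical. The solvent of the drug is not mentioned for parent cells. The medium was RPMI-1640 for TPC-1 and equal parts of RPMI-1640 with F-12 for LC-2/ad, so the line and its medium cannot be told apart.

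Glucose enters cells through facilitative transporters and is trapped by hexokinase. Phosphofructokinase commits it to glycolysis under the control of a separate signal metabolite, a regulatory fructose bisphosphate isomer made by the bifunctional PFKFB enzymes, and the lower part of the pathway turns triose phosphates into pyruvate. Pyruvate is then either reduced to lactate by lactate dehydrogenase and exported, or carried into mitochondria, where the pyruvate dehydrogenase complex oxidises it unless pyruvate dehydrogenase kinases have switched the complex off. TXNIP is an arrestin-like protein that promotes removal of glucose transporters from the cell surface, and its transcription is known to follow glucose through the factors MondoA (gene MLXIP) and ChREBP (MLXIPL). Oncogenic kinase signalling, MYC and HIF1A are known to raise transcription of many glycolytic genes in cancer cells.

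The promoter windows of 3 members are shown because TXNIP passed the test in both lines and its relative ARRDC4 in neither, and because LDHA had the largest fall. They come from RefSeq (GRCh38.p14), whose table held a window of 300 bases (250 before and 50 after a start) for 35 of the 38 members, 68 windows in all since some genes have several starts. Motifs were searched on both strands: the E-box CACGTG, the core ACGTG, which every E-box also contains, the core GCGTG, and a pair of CACGNG elements with 5 bases between them. ACGTG and GCGTG are the usual cores bound by HIF. The CACGNG pair was searched only as a direct repeat with that spacing, so other forms of a carbohydrate response element were not counted. The 250 bases before the start are printed 5′ to 3′ on the gene's strand, with E-boxes, ACGTG cores and the CACGNG pair in capitals. The TXNIP window lies at chr1:145996580-145996829 on the minus strand, that of ARRDC4 at chr15:97960453-97960702 and the LDHA window shown at chr11:18394313-18394562, both on the plus strand. LDHA had more than 1 window. Annotated starts differ, and GENCODE 29 begins the LDHA gene (chr11:18394388-18408425) inside the window shown.
TXNIP: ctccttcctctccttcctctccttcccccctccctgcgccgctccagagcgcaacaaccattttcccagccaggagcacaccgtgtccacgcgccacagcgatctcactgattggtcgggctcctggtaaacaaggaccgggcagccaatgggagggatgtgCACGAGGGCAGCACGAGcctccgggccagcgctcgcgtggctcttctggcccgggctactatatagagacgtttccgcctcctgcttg
ARRDC4: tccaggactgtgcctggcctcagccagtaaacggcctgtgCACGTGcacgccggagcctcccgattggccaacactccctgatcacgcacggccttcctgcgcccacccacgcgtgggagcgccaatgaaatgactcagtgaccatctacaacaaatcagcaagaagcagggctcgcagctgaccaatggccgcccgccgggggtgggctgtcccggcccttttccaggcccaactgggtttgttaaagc
LDHA: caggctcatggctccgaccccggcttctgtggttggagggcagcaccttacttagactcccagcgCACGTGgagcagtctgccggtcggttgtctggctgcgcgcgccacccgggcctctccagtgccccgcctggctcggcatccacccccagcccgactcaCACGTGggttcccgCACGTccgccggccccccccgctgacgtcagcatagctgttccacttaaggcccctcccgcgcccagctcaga
The CACGNG pair was in 20 of 35116 windows in the table (0.057%), and TXNIP was the only member among them. An E-box was in 9 of the 68 member windows (13.2%), against 7.26% of all windows. These were windows of ALDOA, ALDOC, ARRDC4, GAPDH, HK2, LDHA, PDHB, PDK2 and PFKFB3. The LDHA window above held 2 E-boxes, and another LDHA window held none. ACGTG was in 25 of 68 member windows (36.8%), against 21.4% of all, and GCGTG in 30 of 68 (44.1%), against 36.5%. Counted by gene, an E-box was in 25.7% of the 35 member genes, against 8.77% of 27305 genes, ACGTG in 60.0%, against 24.9%, and GCGTG in 71.4%, against 40.6%, but members had more windows per gene. These matches are descriptions of letters and not of binding, and no link to a response was tested. Every motif searched holds the letters CG, and members were not matched to other genes by base composition.

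Of 6 thyroid markers 2 averaged at least 1 TPM in TPC-1 and 2 in LC-2/ad, and of 7 lung markers 0 in TPC-1 and 4 in LC-2/ad. TPC-1 libraries had PAX8 at 256 to 285 TPM after treatment and 154 to 230.0 TPM in parent cells, while TG, the gene of thyroglobulin, reached at most 1.42 TPM. The thyroid factor gene FOXE1 was at 8.89 to 9.83 TPM in treated and 8.29 to 9.83 TPM in parent TPC-1 libraries, and at 34.5 to 38.4 TPM in treated and 11.3 to 12.1 TPM in parent LC-2/ad libraries, so it did not set TPC-1 apart. PAX8 was at 19.5 to 24.6 TPM in treated and 14.0 to 16.2 TPM in parent LC-2/ad libraries. LC-2/ad libraries had NKX2-1 at 140.1 to 140.6 TPM after treatment and 105 to 114 TPM in parent cells, while the surfactant gene SFTPC was at 0. Of 8 blood markers 1 averaged at least 1 TPM in each line, namely CD68. It was at 18.6 to 24.5 TPM in treated and 16.7 to 18.4 TPM in parent TPC-1 libraries. In LC-2/ad CD68 was at 5.95 to 6.76 TPM in treated and 6.96 to 10.4 TPM in parent libraries. The haemoglobin gene HBB was at 0 in all 12 libraries. Of 6 epithelial markers 5 averaged at least 1 TPM in TPC-1 and 6 in LC-2/ad, and of 4 fibroblast markers 1 and 3. TPM (a level per transcript length, scaled to the same sum in each library) keep no read counts, so the depth is unknown. Parent library 1 of TPC-1 stood apart on the main axis of variation, at -4.93 against -23.3 and -17.7 for the other parent libraries. Transcripts of mitochondrial DNA took 6.33% ± 0.49 of all TPM in treated and 6.97% ± 0.57 in parent TPC-1 cells, and 14.6% ± 0.49 in treated and 9.77% ± 0.051 in parent LC-2/ad cells (SD, n = 3 each). The proliferation gene MKI67 averaged 87.9 ± 6.9 TPM in treated and 90.9 ± 1.6 TPM in parent TPC-1 cells, and 17.0 ± 0.21 TPM in treated and 59.1 ± 3.8 TPM in parent LC-2/ad cells (SD, n = 3 each). The part of these shifts in the results was not tested, except that members were refitted without mitochondrial genes.

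The share of message taken by these genes was lower in every treated library than in any parent library of its line, and the gap was widest in LC-2/ad. The share is weighted toward the most abundant members, such as LDHA, GAPDH and ENO1, and does not describe each gene. By gene, 20 of 36 tested members had a negative and 16 a positive fold change in TPC-1, and 30 and 7 of 37 in LC-2/ad. The 38 members together made up 3.05%, 2.96% and 3.26% of all TPM in the treated and 3.39%, 3.58% and 3.37% in the parent TPC-1 libraries. In LC-2/ad they made up 0.973%, 0.984% and 0.985% in the treated and 1.66%, 1.64% and 1.64% in the parent libraries. The groups did not overlap in either line (exact permutation test over libraries, two-sided, p = 0.1 in each, the smallest p that 3 against 3 allow). Counted over nuclear transcripts only, the share was 3.30% ± 0.18 in treated and 3.71% ± 0.13 in parent TPC-1 cells, and 1.15% ± 0.0092 in treated and 1.82% ± 0.012 in parent LC-2/ad cells (SD, n = 3 each). Each value is a share of the RNA of a whole culture, so fewer cells that express a gene and less RNA per cell cannot be told apart.

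Members were tested gene by gene with limma on log2(TPM + 1), with p-values adjusted over all genes that averaged at least 1 TPM in the line and a threshold of 0.05. In what follows, TPM are given for libraries 1, 2 and 3 or as mean ± SD (n = 3), and a log2 fold change with its SE. In TPC-1, 1 of 36 tested members rose (PFKP) and 3 fell (LDHA, TKT and TXNIP), 11.1% of the members against 4.96% of all tested genes (3.75% higher, 1.21% lower). None of these 4 calls held in every refit, and none held without parent library 2, treated library 1 or treated library 2. Without adjustment 13 members were under 0.05. The share of all tested genes under that unadjusted cut was not computed, so the count of 13 has no background here. In LC-2/ad, 4 of 37 rose (PFKFB3, PDK2, PDK4 and TXNIP) and 23 fell. PDK4 reached the level for testing only through its treated libraries, so its call is a description and lends no weight to the count. The background there was high: 55% of all tested genes passed, 30.6% higher and 24.4% lower, against 10.8% and 62.2% of the members. Scaling moved the genome-wide split, with 4319 genes higher and 3451 lower as deposited, 3442 higher and 4318 lower by median-of-ratios scaling, and 5216 higher and 2833 lower without mitochondrial genes, while the members stood at 4 higher and 25 lower and at 6 higher and 19 lower. Treated and parent libraries did not overlap for 13 of 36 members in TPC-1 (4 above, 9 below), against 25.8% of all tested genes (16.6% above, 9.23% below). In LC-2/ad they did not overlap for 30 of 37 (5 above, 25 below), against 62.8% (35.3% above, 27.6% below). The median log2 fold change of the members was -0.055 in TPC-1, against 0.048 over all tested genes, and -0.32 in LC-2/ad cells, against 0.066.

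**Figure D1:**
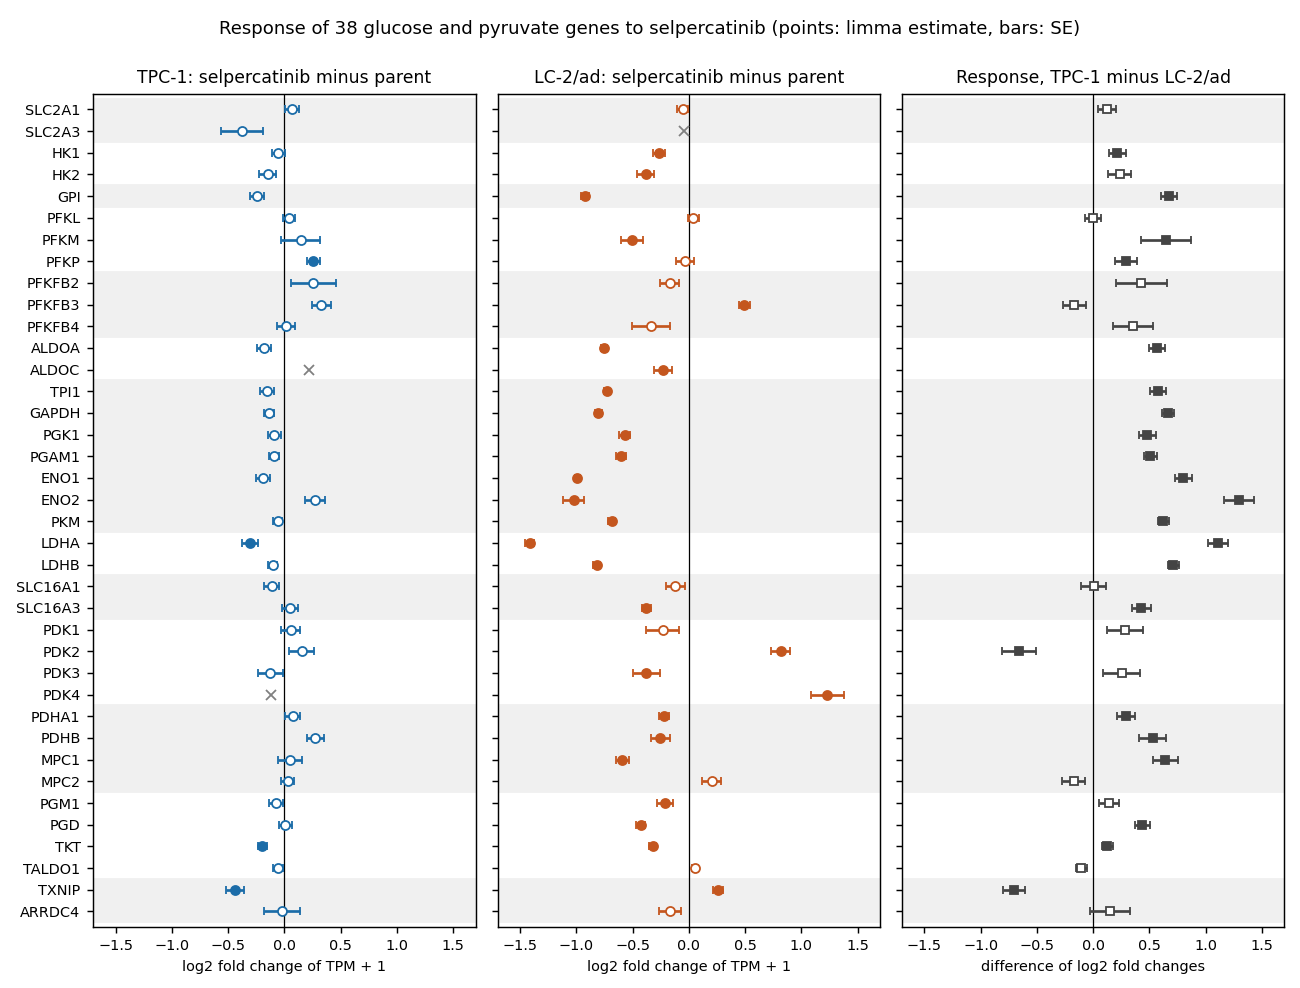
Log2 fold change of TPM + 1 for the 38 members, ordered by role, in TPC-1 (left) and LC-2/ad (middle), and the response in TPC-1 minus that in LC-2/ad (right). Points are limma estimates and bars their SE, filled where the adjusted p was under 0.05, and crosses mark members too low to test. In LC-2/ad the members between GPI and LDHB lie mostly below 0, with LDHA lowest at -1.41, while PDK2, PDK4, PFKFB3 and TXNIP lie above it.

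At the entry of the pathway the main glucose transporter did not pass in either line as deposited, while the hexokinases fell in LC-2/ad. SLC2A1, the basal glucose transporter, stood at 309, 307 and 342 TPM in treated and 316, 287 and 309 TPM in parent TPC-1 libraries (log2 fold change 0.069 ± 0.060 SE, adjusted p = 0.556). In LC-2/ad it stood at 145, 133 and 145 TPM in treated and 145, 153 and 142 TPM in parent libraries (log2 fold change -0.054 ± 0.048 SE, adjusted p = 0.370). Treated and parent values overlapped in both lines. By median-of-ratios scaling SLC2A1 passed in LC-2/ad, at -0.15 (adjusted p = 0.0381, limma). SLC2A3, a high-affinity transporter, was low, at 3.45 ± 1.0 TPM in treated and 4.67 ± 0.39 TPM in parent TPC-1 cells, and was under the level for testing in LC-2/ad. It has a near-identical copy, SLC2A14, so its reads are uncertain. In LC-2/ad SLC2A3 averaged 0.823 TPM in treated and 0.951 TPM in parent cells, and its summed pseudogene copies 2.00 and 2.06 TPM. HK1, the hexokinase of most tissues, fell to 51.6 ± 0.71 TPM in treated LC-2/ad cells, against 62.4 ± 3.5 TPM in parent cells (log2 fold change -0.27 ± 0.053 SE, adjusted p = 0.00344). HK2, the isoenzyme often raised in cancer, stood at 30.4 ± 0.22 TPM in treated and 33.8 ± 2.7 TPM in parent TPC-1 cells (adjusted p = 0.303). In LC-2/ad it fell to 17.2 ± 1.2 TPM, against 22.7 ± 0.89 TPM (log2 fold change -0.38 ± 0.073 SE, adjusted p = 0.00286). The HK2 share of the summed hexokinase TPM was 25.0% ± 1.4 in treated and 26.7% ± 0.35 in parent LC-2/ad cells (SD, n = 3 each; exact permutation test, p = 0.2), and the libraries overlapped.

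GPI, which converts glucose phosphate to fructose phosphate, fell in LC-2/ad. In TPC-1 it stood at 437, 401 and 471 TPM in treated and 506, 530.0 and 514 TPM in parent libraries and missed the threshold (log2 fold change -0.25 ± 0.061 SE, adjusted p = 0.0557), although every treated library lay below every parent library. GPI in LC-2/ad stood at 166, 164 and 159 TPM in treated and 314, 312 and 302 TPM in parent libraries (log2 fold change -0.92 ± 0.034 SE, adjusted p = 8.29e-07), again without overlap, with a larger fold change than either hexokinase.

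Of the phosphofructokinases PFKP rose in TPC-1 and PFKM fell in LC-2/ad. PFKP, the platelet-type subunit and the main one in TPC-1, rose there to 354, 347 and 337 TPM in treated libraries, against 311, 278 and 281 TPM in parent libraries (log2 fold change 0.26 ± 0.055 SE, adjusted p = 0.0336). No treated library overlapped a parent library, but the call was lost in 8 of 15 refits, with adjusted p between 0.0142 and 0.143. PFKM, the muscle-type subunit, fell in LC-2/ad to 20.9, 22.4 and 21.2 TPM in treated libraries, against 36.1, 29.2 and 27.9 TPM in parent libraries (log2 fold change -0.50 ± 0.097 SE, adjusted p = 0.00312). PFKL, the liver-type subunit and the main one in LC-2/ad, stood at 132 ± 5.6 TPM in treated and 128 ± 4.7 TPM in parent TPC-1 cells, and at 94.7 ± 2.3 TPM in treated and 92.2 ± 5.2 TPM in parent LC-2/ad cells, and passed in neither line. PFKM made up 14.1% ± 0.83 of the summed phosphofructokinase TPM in treated and 19.3% ± 1.4 in parent LC-2/ad cells (SD, n = 3 each; exact permutation test, p = 0.1, the smallest allowed).

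PFKFB3, the bifunctional enzyme whose kinase activity strongly favours glycolysis, was the only member between hexokinase and lactate dehydrogenase that rose in LC-2/ad. Treated TPC-1 libraries had 125, 128 and 127 TPM, against 114, 89.1 and 100.2 TPM in parent libraries (log2 fold change 0.33 ± 0.084 SE, adjusted p = 0.0629), without overlap but short of the threshold. LC-2/ad had 141, 153 and 149 TPM in treated and 103, 100.3 and 111 TPM in parent libraries (log2 fold change 0.49 ± 0.051 SE, adjusted p = 1.17e-04). The difference between the lines was -0.17 ± 0.11 (SE, log2, TPC-1 minus LC-2/ad; adjusted p = 0.238), so no difference in this response was shown. PFKFB2 and PFKFB4, its relatives, passed in neither line as deposited (PFKFB2 was lower in LC-2/ad in 2 of 15 refits, at -0.26 by median-of-ratios scaling), and PFKFB4 stood at 2.47 ± 0.30 TPM in treated and 3.44 ± 0.89 TPM in parent LC-2/ad cells.

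Below phosphofructokinase, every member down to lactate dehydrogenase fell in LC-2/ad. ALDOA, the main aldolase, which splits fructose bisphosphate, fell to 755, 776 and 771 TPM in treated libraries of LC-2/ad, against 1329.5, 1267 and 1292 TPM in its parent libraries (log2 fold change -0.76 ± 0.028 SE, adjusted p = 8.78e-07). ALDOC, a minor isoenzyme, fell to 8.97 ± 0.52 TPM, against 10.7 ± 0.41 TPM (log2 fold change -0.23 ± 0.080 SE, adjusted p = 0.0435), a call lost in 8 of 15 refits.

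Triose phosphate is taken to pyruvate by 7 members (TPI1, GAPDH, PGK1, PGAM1, ENO1, ENO2 and PKM), and none of them passed in TPC-1. GAPDH, the triose phosphate dehydrogenase, stood at 6296, 6462 and 6788 TPM in treated and 7126, 7424 and 6943 TPM in parent TPC-1 libraries (log2 fold change -0.14 ± 0.046 SE, adjusted p = 0.131), with the treated libraries all lower. ENO1, the main enolase, stood at 4290.5, 4139 and 4711 TPM in treated and 4667, 5356 and 4965 TPM in parent TPC-1 libraries (log2 fold change -0.19 ± 0.065 SE, adjusted p = 0.136), and treated library 3 reached into the parent range. ENO2, the enolase of neurons, went against the rest: treated TPC-1 libraries had 65.1, 58.3 and 61.1 TPM, all above the 55.8, 44.6 and 52.3 TPM of the parent libraries, but short of the threshold (log2 fold change 0.27 ± 0.089 SE, adjusted p = 0.120).

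In LC-2/ad all 7 fell, with log2 fold changes between -1.02 and -0.57, and kept the call in every refit. GAPDH stood at 2091, 2132 and 2158 TPM in treated and 3867, 3656 and 3626 TPM in parent LC-2/ad libraries, a fall to 57.2% of the parent mean (log2 fold change -0.80 ± 0.031 SE, adjusted p = 9.59e-07). ENO1 stood at 1186, 1204 and 1177 TPM in treated and 2398, 2352 and 2339 TPM in parent LC-2/ad libraries, 50.3% of the parent mean (log2 fold change -0.99 ± 0.024 SE, adjusted p = 2.04e-07). The treated libraries lay close together and far below the parent libraries for both genes. PKM, pyruvate kinase, fell to 697 ± 17.6 TPM in treated LC-2/ad cells, against 1121 ± 24.9 TPM in parent cells (log2 fold change -0.69 ± 0.031 SE, adjusted p = 1.80e-06). TPI1, PGK1 and PGAM1 fell to 60.2%, 67.2% and 65.8% of their parent means. Pseudogene copies of PGAM1 held at most 4.08% of its TPM in LC-2/ad libraries and those of GAPDH at most 0.175%. ENO2 fell to 11.5, 9.96 and 9.86 TPM in treated libraries, against 24.5, 21.8 and 20.4 TPM in parent libraries (log2 fold change -1.02 ± 0.093 SE, adjusted p = 6.09e-05). ENO2 had the largest difference between the lines among the members, 1.30 ± 0.13 (SE, adjusted p = 1.00e-05).

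**Figure D2:**
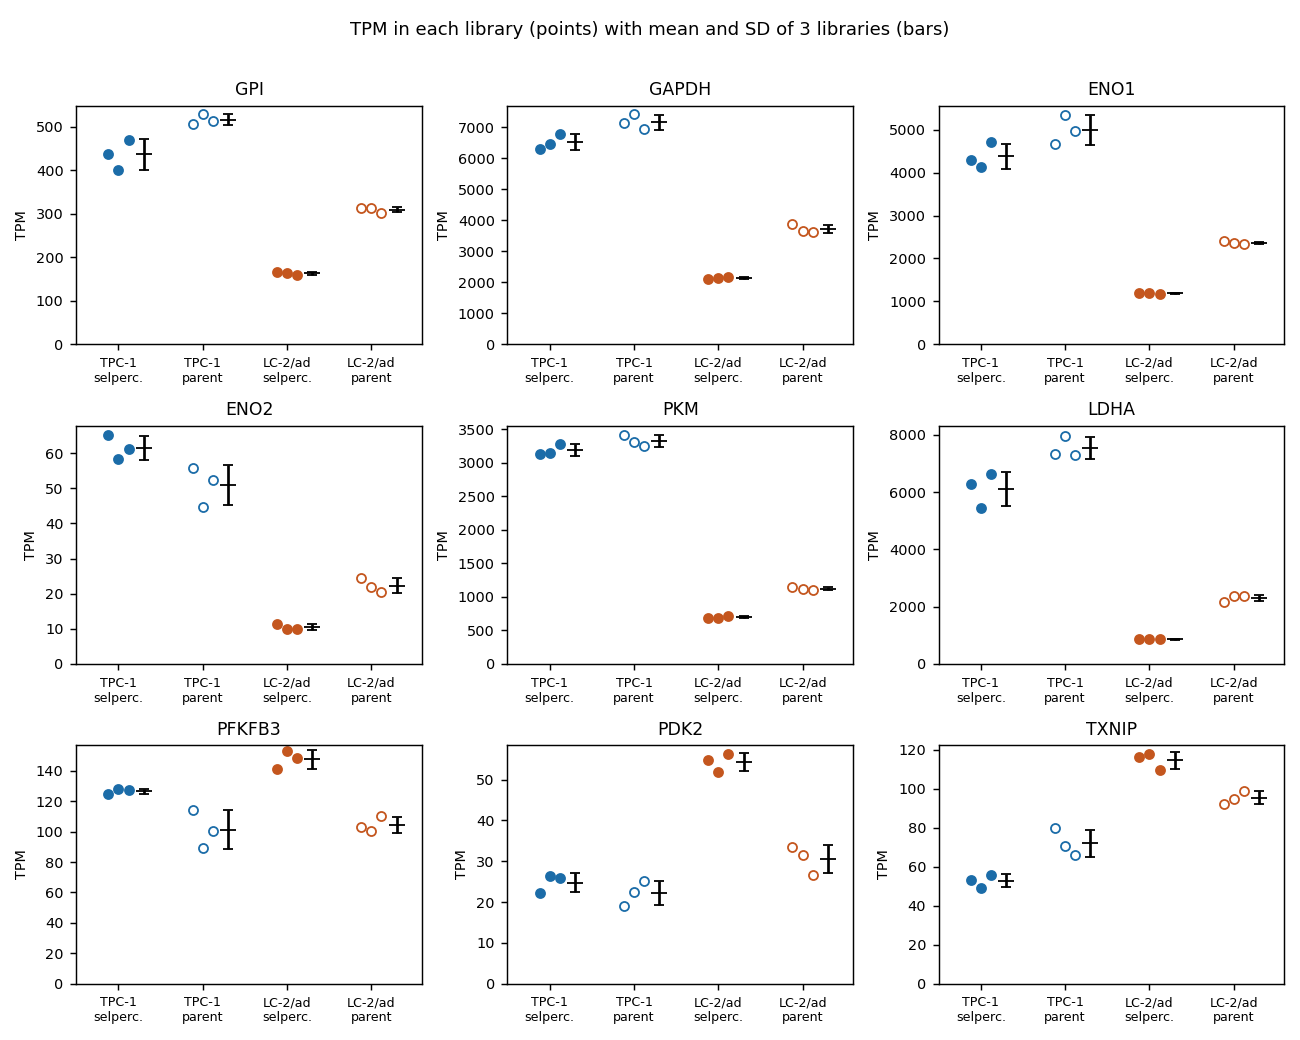
TPM of 9 members in each library, with selpercatinib-treated libraries as filled and parent libraries as open points, TPC-1 in blue and LC-2/ad in orange. Bars give the mean and SD of 3 libraries. Treated LC-2/ad libraries lie below the parent libraries for GPI, GAPDH, ENO1, ENO2, PKM and LDHA and above them for PFKFB3, PDK2 and TXNIP, while in TPC-1 TXNIP lies at 49.1 to 55.8 TPM after treatment, below the 66.0 to 79.6 TPM of parent cells.

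LDHA, the lactate dehydrogenase subunit that favours lactate, had the largest fall of any member in LC-2/ad and fell slightly in TPC-1. In TPC-1, treated libraries had 6273, 5458 and 6626 TPM, against 7340.0, 7969 and 7293 TPM in parent libraries (log2 fold change -0.30 ± 0.072 SE, adjusted p = 0.0495), close to the threshold and lost in 10 of 15 refits. Treated LC-2/ad libraries had 856, 855 and 879 TPM, against 2174, 2358 and 2377 TPM in parent libraries, so that 37.5% of the parent mean was left (log2 fold change -1.41 ± 0.038 SE, adjusted p = 2.69e-07). LDHB, the subunit that favours pyruvate, stood at 1263 ± 39.1 TPM in treated and 1358 ± 30.6 TPM in parent TPC-1 cells, which missed the threshold (adjusted p = 0.201). LDHB fell in LC-2/ad to 651 ± 22.4 TPM, against 1149 ± 16.1 TPM (log2 fold change -0.82 ± 0.032 SE, adjusted p = 1.08e-06). The LDHA share of the summed subunit TPM was 83.2%, 81.7% and 83.6% in treated and 84.7%, 85.2% and 84.2% in parent TPC-1 libraries. In LC-2/ad that share was 57.4%, 55.8% and 57.8% in treated and 65.8%, 67.1% and 67.2% in parent libraries. Treated libraries lay below parent libraries in both lines (exact permutation test, p = 0.1 in each, the smallest allowed), with treated minus parent at -1.88 percentage points in TPC-1 and -9.69 in LC-2/ad.

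Of the lactate exporters SLC16A3 fell in LC-2/ad and SLC16A1 passed in neither line. SLC16A3, the transporter typical of glycolytic cells, stood at 585 ± 58.1 TPM in treated and 564 ± 13.7 TPM in parent TPC-1 cells, with overlapping libraries. In LC-2/ad it fell to 263, 249 and 251 TPM in treated libraries, against 324, 319.9 and 347 TPM in parent libraries (log2 fold change -0.38 ± 0.042 SE, adjusted p = 1.81e-04). SLC16A1, the widely expressed one, stood at 33.3 ± 3.7 TPM in treated and 36.1 ± 1.8 TPM in parent LC-2/ad cells.

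Among the pyruvate dehydrogenase kinases, which inhibit the entry of pyruvate into oxidation, PDK2 and PDK4 rose in LC-2/ad and PDK3 fell. PDK2 stood at 54.7, 51.8 and 56.3 TPM in treated and 33.4, 31.4 and 26.7 TPM in parent LC-2/ad libraries, without overlap (log2 fold change 0.82 ± 0.084 SE, adjusted p = 1.18e-04). PDK4, the isoenzyme known to rise on fasting, stood at 2.74, 2.74 and 2.44 TPM in treated and 0.548, 0.581 and 0.516 TPM in parent libraries, 481% of the parent mean (log2 fold change 1.23 ± 0.15 SE, adjusted p = 2.64e-04). PDK4 reached the level for testing only through its treated libraries, so its rise is a description. Its level was low in all libraries, and its log2 fold change moved to 2.08 with a pseudocount of 0.1 and to 0.46 with a pseudocount of 5. PDK3 fell to 6.05 ± 0.63 TPM, against 8.17 ± 1.1 TPM (log2 fold change -0.38 ± 0.12 SE, adjusted p = 0.0289), a call lost in 5 of 15 refits. PDK1, a kinase induced by hypoxia, stood at 2.27 ± 0.40 TPM in treated and 2.83 ± 0.32 TPM in parent LC-2/ad cells and did not pass.

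The TPC-1 sum of PDK1 to PDK4 was 54.6 ± 1.6 TPM in treated and 52.3 ± 1.3 TPM in parent cells (SD, n = 3 each; exact permutation test, p = 0.2), and none of the 3 kinases tested there passed (PDK4 was too low). PDK1 supplied 37.0% ± 2.8 and PDK2 45.4% ± 3.7 of the sum in treated TPC-1 cells, and 37.2% ± 3.4 and 42.5% ± 4.9 in parent TPC-1 cells (SD, n = 3 each). LC-2/ad had another make-up. Its kinase sum was 66.1, 63.3 and 66.2 TPM in treated and 44.0, 44.5 and 37.7 TPM in parent libraries, and PDK2 supplied 83.2% ± 1.6 of it in treated and 72.5% ± 3.0 in parent cells (SD, n = 3 each). Neither quantity overlapped between the LC-2/ad groups (exact permutation test, p = 0.1 in each, the smallest allowed).

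**Figure D3:**
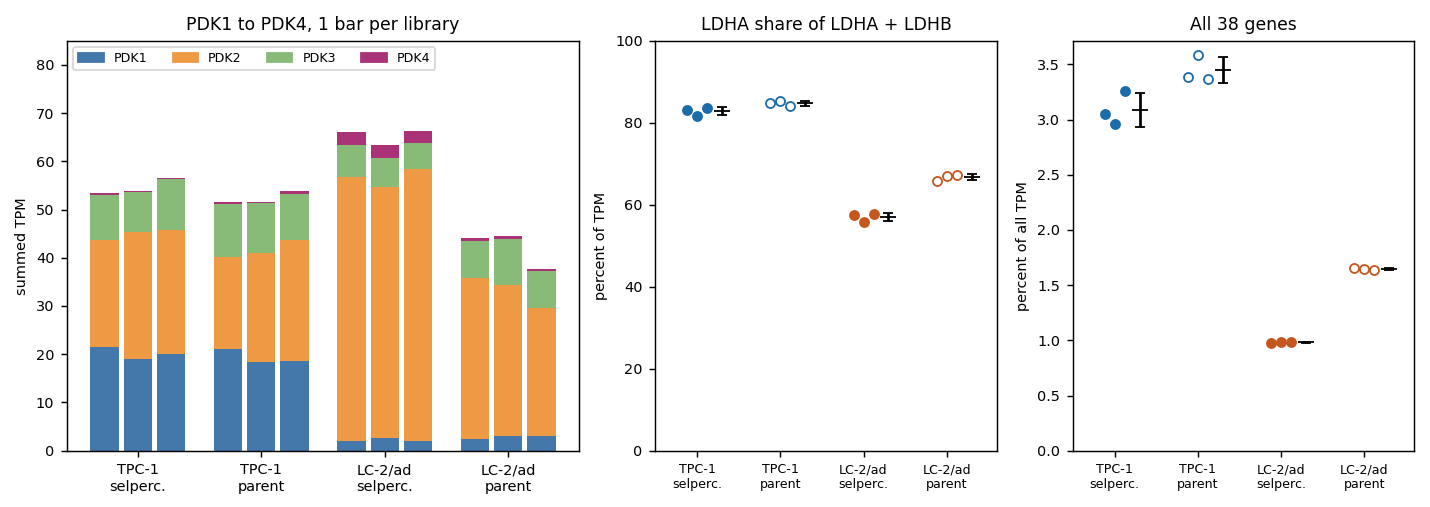
Left, stacked TPM of PDK1 to PDK4 with 1 bar per library. Middle and right, LDHA share of the LDHA and LDHB sum and share of all TPM taken by the 38 members, with libraries as points (filled after selpercatinib, open in parent cells) and mean and SD of 3 libraries as bars. In LC-2/ad the kinase sum is 63.3 to 66.2 TPM after treatment and 37.7 to 44.5 TPM in parent cells, while the LDHA share and the total share are lower after treatment.

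At the gate itself PDHA1, PDHB and MPC1 fell in LC-2/ad and MPC2 did not pass. PDHA1 and PDHB encode the subunits of the pyruvate dehydrogenase component. PDHA1 fell to 124 ± 1.8 TPM in treated LC-2/ad cells, against 145 ± 6.8 TPM in parent cells (log2 fold change -0.22 ± 0.044 SE, adjusted p = 0.00376). PDHB fell to 34.5 ± 1.8 TPM, against 41.4 ± 4.5 TPM (log2 fold change -0.25 ± 0.084 SE, adjusted p = 0.0345), a call lost in 7 of 15 refits. MPC1, a subunit of the mitochondrial pyruvate carrier, fell to 36.9, 33.8 and 38.5 TPM in treated libraries, against 54.4, 55.4 and 56.1 TPM in parent libraries (log2 fold change -0.59 ± 0.058 SE, adjusted p = 9.12e-05). MPC2, its partner subunit, stood at 46.9, 50.2 and 41.2 TPM in treated and 38.6, 43.1 and 37.9 TPM in parent libraries and missed the threshold (log2 fold change 0.20 ± 0.084 SE, adjusted p = 0.0705), but was called higher in 4 of 15 refits. In TPC-1 none of the 4 passed, and PDHB came nearest, at 75.4, 72.0 and 74.5 TPM in treated and 67.7, 58.1 and 57.6 TPM in parent libraries (log2 fold change 0.27 ± 0.073 SE, adjusted p = 0.0684), with all treated libraries higher.

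In the branches from glucose phosphate, TKT fell in both lines. TKT, transketolase of the pentose phosphate pathway, stood at 610.1, 644 and 627 TPM in treated and 716, 705 and 734 TPM in parent TPC-1 libraries (log2 fold change -0.20 ± 0.043 SE, adjusted p = 0.0346), a call lost in 10 of 15 refits, among them each one without a TPC-1 library. In LC-2/ad it stood at 573, 578 and 581 TPM in treated and 733, 729 and 706 TPM in parent libraries (log2 fold change -0.32 ± 0.027 SE, adjusted p = 4.35e-05). The groups did not overlap in either line. PGD, which makes NADPH in the oxidative arm, stood at 169.9 ± 0.43 TPM in treated and 169 ± 11.3 TPM in parent TPC-1 cells, and fell in LC-2/ad to 145 ± 4.1 TPM, against 195 ± 4.1 TPM (log2 fold change -0.43 ± 0.037 SE, adjusted p = 4.71e-05). TALDO1, transaldolase, stood at 392 ± 5.1 TPM in treated and 378 ± 4.4 TPM in parent LC-2/ad cells and passed in neither line as deposited (without mitochondrial genes it was higher in LC-2/ad, by 0.13, adjusted p = 0.00531). PGM1, which links glucose phosphate to glycogen, fell in LC-2/ad to 25.0 ± 1.5 TPM, against 29.1 ± 1.4 TPM (log2 fold change -0.21 ± 0.068 SE, adjusted p = 0.0296), a call lost in 6 of 15 refits.

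TXNIP passed in both lines in opposite directions. It stood at 53.4, 49.1 and 55.8 TPM in treated and 79.6, 70.5 and 66.0 TPM in parent TPC-1 libraries, a fall to 73.2% of the parent mean (log2 fold change -0.44 ± 0.083 SE, adjusted p = 0.0197). In LC-2/ad it stood at 116, 118 and 109.5 TPM in treated and 92.3, 94.9 and 98.7 TPM in parent libraries, a rise to 120.0% (log2 fold change 0.26 ± 0.046 SE, adjusted p = 0.00191). No treated library overlapped a parent library in either line. The responses differed by -0.70 ± 0.098 (SE, adjusted p = 1.21e-04), and this difference passed in each of 21 refits, with estimates between -0.79 and -0.63. The TPC-1 call alone was lost in 5 of 15 refits, with adjusted p between 0.0101 and 0.0828, and the LC-2/ad estimate was 0.17 by median-of-ratios scaling. ARRDC4, the related arrestin, stood at 3.10 ± 0.30 TPM in treated and 3.18 ± 0.63 TPM in parent TPC-1 cells. It stood at 4.78 ± 0.23 TPM in treated and 5.50 ± 0.37 TPM in parent LC-2/ad cells and passed in neither line.

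The difference between the lines was tested directly in 35 members, since ALDOC, PDK4 and SLC2A3 were too low in 1 of the lines. The response was higher in TPC-1 for 20 members and lower for 2 (PDK2 and TXNIP), so 62.9% passed, against 36.6% of all genes tested. By direction the shares were 57.1% higher and 5.71% lower, against 22.2% and 14.4% of all genes. Of the 20 higher ones, 12 had a negative fold change in both lines, so that higher there means a smaller fall in TPC-1. The median difference was 0.35 on the log2 scale, against 0.035 over all genes. LDHA differed by 1.11 ± 0.089 (SE, adjusted p = 1.15e-06), ENO1 by 0.80 ± 0.074 (SE, adjusted p = 3.88e-06), LDHB by 0.71 ± 0.051 (SE, adjusted p = 4.48e-07) and GAPDH by 0.67 ± 0.055 (SE, adjusted p = 1.39e-06). Each of these 4 had a negative fold change in both lines and the larger one in LC-2/ad. MPC1 differed by 0.64 ± 0.11 (SE, adjusted p = 5.53e-04) and PDK2 by -0.66 ± 0.15 (SE, adjusted p = 0.00396). For 13 members no difference was shown, among them PFKL at -0.0013 ± 0.073 (SE, adjusted p = 0.992), SLC16A1 at 0.0068 ± 0.11 (SE, adjusted p = 0.970) and SLC2A1 at 0.12 ± 0.079 (SE, adjusted p = 0.245).

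Other genes of the pathway, 70 in number, were listed by function. In TPC-1, 2 of the 46 tested rose and 0 fell by limma, 4.35% against 4.96% of all tested genes. Without adjustment 12 were under 0.05, a cut for which no share of all genes was computed. The genes that rose were SLC2A6, a hexose transporter of lysosomes, with 17.1 ± 0.68 TPM in treated and 12.5 ± 0.75 TPM in parent cells (log2 fold change 0.43 ± 0.088 SE, adjusted p = 0.0280), and HKDC1, a hexokinase relative, with 68.1 ± 6.4 TPM in treated and 47.0 ± 3.0 TPM in parent cells (log2 fold change 0.52 ± 0.084 SE, adjusted p = 0.00911). Both calls were lost without the filter on low genes, and that of SLC2A6 in 7 of 15 refits. In LC-2/ad, 17 of 49 rose and 17 fell, 34.7% in each direction, against 30.6% and 24.4% of all tested genes.

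Those that fell in LC-2/ad included PC, which carboxylates pyruvate to oxaloacetate, with 12.1 ± 2.6 TPM in treated and 32.8 ± 6.0 TPM in parent cells (log2 fold change -1.37 ± 0.16 SE, adjusted p = 2.56e-04). DLAT and PDHX, further components of the pyruvate dehydrogenase complex, fell by 0.37 and 0.40 on the log2 scale, and PDP1, a phosphatase that reactivates the complex, fell by 0.40. BSG, the chaperone of the lactate transporters, fell by 0.26, and RPE and RPIA, pentose phosphate isomerising enzymes, fell by 0.49 and 0.33. These genes are listed because they fell, so their direction lends no weight to that of the members. PDPR, PGLS, H6PD and SLC16A7, of the same functions, rose.

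Those that rose in LC-2/ad included BPGM, which makes bisphosphoglycerate beside the main pathway, with 40.7 ± 2.6 TPM in treated and 19.4 ± 1.4 TPM in parent cells (log2 fold change 1.03 ± 0.075 SE, adjusted p = 1.99e-05). FBP1, the fructose bisphosphatase of gluconeogenesis, stood at 81.5 ± 2.1 TPM in treated and 55.6 ± 1.3 TPM in parent cells (log2 fold change 0.54 ± 0.043 SE, adjusted p = 3.16e-05). H6PD, a hexose phosphate dehydrogenase of the endoplasmic reticulum, stood at 21.0 ± 0.57 TPM in treated and 11.3 ± 0.18 TPM in parent cells (log2 fold change 0.84 ± 0.063 SE, adjusted p = 2.29e-05). PGLS, the lactonase of the pentose phosphate pathway, rose by 0.54 on the log2 scale, SLC16A7, a high-affinity monocarboxylate transporter, by 0.64, and SLC2A10 and SLC2A11, further hexose transporters, by 0.93 and 0.57. FBP2 and PCK2, gluconeogenic enzymes, rose by 0.59 (0.26 to 0.84 over 14 refits) and 0.33 (a call lost in 5 of 15 refits), PYGB, a glycogen phosphorylase, by 0.32, and PDPR, a regulator of pyruvate dehydrogenase phosphatase, by 0.46.

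Of 10 listed regulators 3 rose and 5 fell in LC-2/ad, where 30.6% of all tested genes were higher and 24.4% lower. None of the 9 tested passed by limma in TPC-1, where 4.96% of all did, and HIF1A was called in 1 of 15 refits. Without adjustment 2 were under 0.05 in TPC-1, again with no share of all genes computed for that cut. The call of TIGAR, a phosphatase that lowers glycolytic flux, was lost in 8 of 15 refits. MYC, a transcription factor of growth, stood at 116 ± 4.0 TPM in treated and 182 ± 4.0 TPM in parent LC-2/ad cells (log2 fold change -0.65 ± 0.040 SE, adjusted p = 8.24e-06). HIF1A, the oxygen-regulated factor, stood at 317 ± 13.5 TPM in treated and 269 ± 19.9 TPM in parent TPC-1 cells, without passing (log2 fold change 0.24 ± 0.063 SE, adjusted p = 0.0698). HIF1A fell in LC-2/ad to 179.8 ± 6.8 TPM, against 239.5 ± 0.71 TPM (log2 fold change -0.41 ± 0.037 SE, adjusted p = 5.93e-05), and the lines differed by 0.65 ± 0.076 (SE, adjusted p = 2.79e-05). MLXIP, the gene of MondoA, stood at 26.9 ± 0.46 TPM in treated and 30.3 ± 2.6 TPM in parent TPC-1 cells (log2 fold change -0.16 ± 0.081 SE, adjusted p = 0.288). MLXIP rose in LC-2/ad to 37.6 ± 0.24 TPM, against 33.5 ± 1.7 TPM (log2 fold change 0.16 ± 0.055 SE, adjusted p = 0.0369), a call lost in 8 of 15 refits, and the lines differed by -0.32 ± 0.094 (SE, adjusted p = 0.0170). MLXIPL was low, at 3.49 ± 0.97 TPM in treated and 1.62 ± 0.78 TPM in parent LC-2/ad cells (log2 fold change 0.80 ± 0.25 SE, adjusted p = 0.0263), a call lost in 4 of 14 refits with estimates between 0.36 and 1.13, and was under the level for testing in TPC-1.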

How the data were processed

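The authors deposited 1 table of TPM for each line, scaled to the same sum in every library. Tools named in the submitters' processing notes are bcl2fastq 2.20.0 and Salmon, with the build GRCh38. How transcripts were summed to genes is not given in the sources used here. TPM keep no depth, so no counting error is given. Coordinates are those of GENCODE 29.

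In each line log2(TPM + 1) was compared with limma (version 3.58.1, R 4.3.3; lmFit, then eBayes with its variance trend) where a gene averaged at least 1 TPM in the 6 libraries. Two-sided p-values were adjusted by the Benjamini-Hochberg method over all tested genes. The lines were compared in a fit of all 12 libraries (TPC-1 response minus LC-2/ad response). The fits were checked on simulated data. Refits changed the pseudocount (0.1, 5), the filter (none, 5 TPM), the scaling, the variance trend and the replicate block, and left out each library. A refit with pseudogene copies summed into their genes was chosen after seeing the data. All members were named. Of the other pathway genes, up to 3 per function, line and direction with the largest change were named, except that some listed genes are not reported here. Members and lists were chosen with earlier results of these data known. Figures were drawn with Python 3.11.15 and matplotlib 3.10.9.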

Additional observations from a re-analysis of the deposited data

Results flagged for a closer look

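The response of 22 members differed between the lines by the direct test (limma, TPC-1 minus LC-2/ad, log2 scale, adjusted p under 0.05), 62.9% of the members tested, against 36.6% of all genes tested. Of these, 17 held in every refit. A positive value means a higher log2 fold change in TPC-1, which for 12 members was a smaller fall. The difference was 0.68 for GPI. In the lower part of glycolysis the differences were 0.57 for ALDOA, 0.57 for TPI1, 0.67 for GAPDH, 0.48 for PGK1, 0.51 for PGAM1, 0.80 for ENO1, 1.30 for ENO2 and 0.62 for PKM. LDHA differed by 1.11, LDHB by 0.71 and the lactate exporter SLC16A3 by 0.43. At pyruvate entry MPC1 differed by 0.64, PDHB by 0.53 and PDHA1 by 0.29. PGD differed by 0.44. The differences of HK1 (0.21), PFKM (0.65), PFKP (0.29), TKT (0.13) and PDHA1 were lost in some refits, those of HK1, PFKM, PFKP and TKT also without single libraries.

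The response was lower in TPC-1 for PDK2, by -0.66, and for TXNIP, by -0.70. TXNIP was the only member called in both lines with opposite signs.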

How the results depend on the processing

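No called value changed sign in any refit. In LC-2/ad 23 of the 27 calls held in every refit (ALDOC, PDK3, PDHB and PGM1 did not), and SLC2A1, PFKFB2, MPC2 and TALDO1 were called in 1, 2, 4 and 1 refits only. The 23 include PDK4, tested in 14 refits and only through its treated libraries, so its call lends no weight to the count. In TPC-1, GPI, PFKFB3 and PDHB were gained in 2 refits each. Leaving out single libraries gave 4 to 5 members higher, 20 to 21 lower and 6888 to 7226 genes called. For the difference between the lines it gave 16 to 20 members higher, 2 to 3 lower and 3895 to 4273 genes.

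The TPC-1 calls depended on the settings. Against 1 member higher, 3 lower and 636 genes called, the counts were 0, 0 and 272 with no filter, and 0, 0 and 356 with no variance trend. Median-of-ratios scaling gave 0 higher and 1 lower, and a mean of at least 5 TPM gave 3 higher. Leaving out single libraries gave 0 to 3 higher, 0 to 3 lower and 292 to 815 genes, with 3 higher and 1 lower without parent library 1, and 0 and 0 without parent library 2, treated library 1 or treated library 2.

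With the replicate number as a block 1 TPC-1 member was lower. Same-numbered libraries did not deviate together (correlations of deviations 0.054, -0.026 and 0.039 in TPC-1, -0.040, -0.015 and -0.048 in LC-2/ad), and not every library correlated best with its own number, so the numbers were not read as pairs. The depth behind low values such as PDK4 is unknown.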

Other observations

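Transcript levels of some isoenzymes and related genes differed between the lines before any treatment, in tables that were made separately. Other isoenzymes had the same main form in both. The LDHA share of LDHA plus LDHB was 84.7% ± 0.54 in TPC-1 and 66.7% ± 0.79 in LC-2/ad parent cells. The HK2 share of HK1 plus HK2 was 20.6% ± 1.5 and 26.7% ± 0.35 (SD, n = 3 each). PFKP supplied 66.3% ± 2.2 of the summed phosphofructokinase TPM in treated and 63.3% ± 0.33 in parent TPC-1 cells, and 23.9% ± 1.8 in treated and 23.3% ± 1.1 in parent LC-2/ad cells (SD, n = 3 each). HKDC1, the hexokinase relative, averaged 47.0 ± 3.0 TPM in TPC-1 and 1.95 ± 0.27 TPM in LC-2/ad parent cells, whereas FBP1, the gluconeogenic bisphosphatase, averaged 0.105 ± 0.055 TPM in TPC-1 and 55.6 ± 1.3 TPM in LC-2/ad parent cells (SD, n = 3 each). Glycolytic message also took a larger part of the TPC-1 transcriptome, 3.45% ± 0.12 for the 38 members in TPC-1 and 1.65% ± 0.012 in LC-2/ad parent cells (SD, n = 3 each). These line differences were not tested.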
